A study of Mus musculus with 15 samples.

Results

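The transcripts described here are those of 10 genes of the tight junction, the seal between neighbouring epithelial cells: the claudins Cldn1, Cldn3, Cldn5, Cldn7, Cldn10, Cldn11, Cldn12 and Cldn15, occludin (Ocln) and afadin, listed under its older symbol Mllt4. They were found by symbol among the 24490 gene rows of the count tables, and all 10 had a row. Claudins are membrane proteins whose extracellular loops meet those of the next cell and either close the space between cells or leave pores for selected ions. Occludin sits in the same strands, while afadin is a cytoplasmic adaptor that ties nectins to actin where the junction forms. In the gonads Cldn11 builds the barrier between Sertoli cells of the testis, whereas granulosa cells, their ovarian counterpart, surround the oocyte without such a sealed barrier.

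The cells were primary granulosa cells from the ovaries of 8-week-old RjOrl:SWISS female mice, transfected in 6-well plates with 30 pmol of siRNA and sequenced as stranded mRNA libraries. Foxl2 siRNA cells were collected at 30 h and at 54 h, Esr2 siRNA cells at 30 h, and cells with scrambled, non-targeting siRNA at 30 h and 54 h, with 3 libraries in each of the 5 groups and 15 in all. Foxl2 encodes a forkhead factor that maintains the granulosa identity, and Esr2 encodes oestrogen receptor beta; the study asked what depends on each in cell migration, invasion and adhesion. All groups, the scrambled ones included, went through the same transfection, and an untransfected group was not analysed here. The 54 h time is given by the sample titles, while the protocol names 30 h. Both siRNA pools carry identical catalogue numbers in the labels. Nothing there says whether the replicates were separate cultures or animals, so p-values measure only how far these libraries spread, which may be technical.

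Each library held 44976872 to 59550065 gene counts. Levels are CPM, counts scaled to a common library total after TMM normalisation, and a single library cannot show a level under that of 3 counts, 0.0504 to 0.0667 CPM depending on its depth. These limits, and the intervals given for sparse genes, cover counting error only. Foxl2 stood at 33.8, 28.4 and 65.4 CPM in Foxl2 siRNA cells at 30 h, against 174, 152 and 143 CPM in scrambled cells, and at 33.6, 57.5 and 25.2 CPM in Foxl2 siRNA cells at 54 h, against 189, 154 and 166 CPM in scrambled cells. Replicate 3 at 30 h and replicate 2 at 54 h thus kept more Foxl2 than the other Foxl2 siRNA libraries of their time. Esr2 stood at 12.9, 14.5 and 13.9 CPM in Esr2 siRNA cells and at 60.6, 60.4 and 61.6 CPM in scrambled cells at 30 h. It was also lower in Foxl2 siRNA cells, by 1.31 ± 0.34 on the log2 scale at 54 h (adjusted p = 0.00854 by edgeR; 0.0652 when only the groups compared were fitted). Foxl2 in turn stood at 112, 128 and 114 CPM in Esr2 siRNA cells, below every scrambled library at 30 h. Its log2 difference there was -0.41 ± 0.29 (adjusted p = 0.539 by edgeR over all groups). Limma voom gave an adjusted p of 0.0404, and edgeR with just this pair of groups gave 0.0348. The part of lower Foxl2 in the Esr2 siRNA results, and of lower Esr2 in the Foxl2 siRNA results, was not tested. Granulosa markers were present throughout, Inha at 1411 to 2407 CPM and Amhr2 at 102 to 255 CPM, while Fshr stayed at 0.948 CPM or less in every library. The 12 markers on that list include Foxl2, the siRNA target, and Esr2. Inha had the highest level of the 12, so their sums rest largely on it. At 54 h the 12 summed to 2361 to 3173 CPM in Foxl2 siRNA cells, against 3338 to 3411 CPM in scrambled cells. There 7 were called lower, Foxl2 and Esr2 among them, and 2 higher, where 20.3% of all genes tested were lower and 18.5% higher. At 30 h the 12 summed to 2487 to 3360 CPM in Foxl2 siRNA cells, against 3103 to 3309 CPM in scrambled cells. There 4 were called lower, Foxl2 among them, and 1 higher, where 6.65% of all genes tested were lower and 6.34% higher. The part of this shift in the junction gene results was not tested.

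Foxl2 siRNA cells held more of several tight junction transcripts than scrambled cells, and at 54 h more of most members. At 54 h, 6 of the 8 members with enough counts to test were higher in Foxl2 siRNA cells than in scrambled cells and none was lower, where 38.8% of all 14907 genes tested were called, 18.5% higher and 20.3% lower. Those 6 were Cldn11, Cldn3, Cldn15, Cldn12, Mllt4 and Ocln. At 30 h, 2 of 8 were called, Mllt4 and Cldn12, both higher, where 13% of all genes were called, 6.34% higher and 6.65% lower. The median log2 change of the 8 was 0.87 at 54 h and 0.45 at 30 h, beside -0.01 over all genes at each time. Esr2 siRNA gave no called member by edgeR or DESeq2, and 2 at an unadjusted p under 0.05 by edgeR. There edgeR called 4.23% of all genes, 1.13% higher and 3.11% lower, and 2625 of 14907 had an unadjusted p under 0.05. Limma voom with quality weights called 3 members, all higher, and 4731 genes in all, 2148 higher and 2583 lower. Calls are at a Benjamini-Hochberg adjusted p under 0.05 over all 14907 genes in edgeR's quasi-likelihood fit. In these bulk samples a changed share of cells of a type and a changed amount of RNA per cell cannot be told apart.

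**Figure D1:**
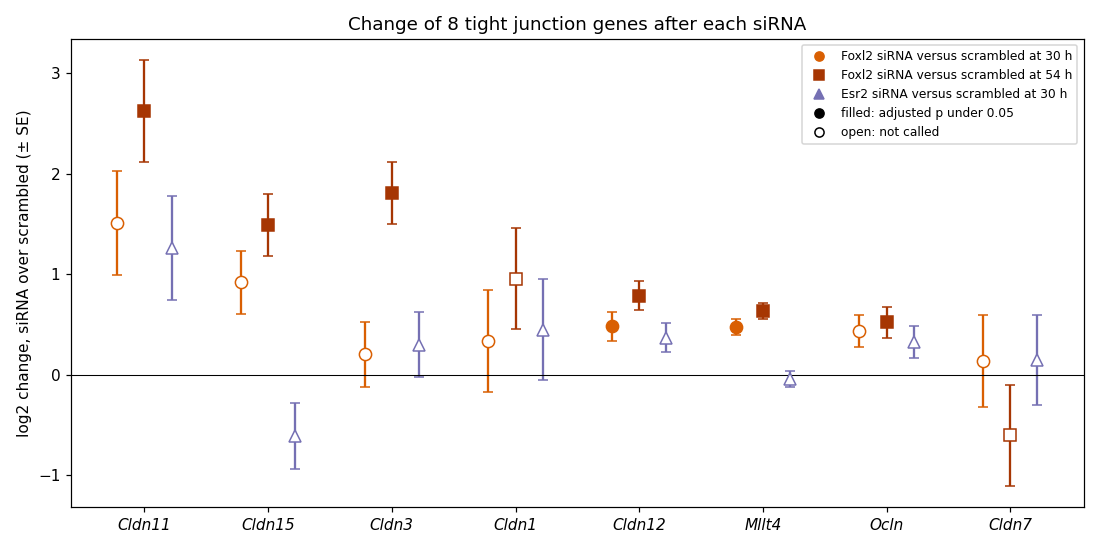
Log2 change of 8 tight junction genes (y axis, siRNA over scrambled, bars ± SE from edgeR's fit with 3 libraries a group) after Foxl2 siRNA at 30 h and 54 h and after Esr2 siRNA at 30 h; filled symbols have an adjusted p under 0.05. At 54 h 6 symbols are filled and lie above 0, with Cldn11 highest at 2.62, and the Esr2 siRNA symbols are all open, with Cldn15 at -0.61 and Mllt4 at -0.04.

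Per kilobase of exon, the resting cells carried 2 members far above the rest. In scrambled cells at 30 h Cldn12 stood at 24.5 and Mllt4 at 15.9 mean CPM per kb. Then came Cldn1 at 1.32, Ocln at 0.692, Cldn15 at 0.645, Cldn11 at 0.518, Cldn3 at 0.346 and Cldn7 at 0.0887 CPM per kb. Cldn5, the claudin of blood vessel walls, was at 0.0359 CPM per kb and Cldn10, a pore-forming claudin, at 0. The claudin that forms the Sertoli barrier was therefore a minor transcript in these cells, and Cldn12, an unusual claudin that lacks the usual tail for binding PDZ scaffold proteins, was the leading one among the members.

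Cldn11 had the widest range of group means among the tested members, 3.01 on the log2 scale. The gene lies on mouse chromosome 3 at 31149920 to 31164324 on the plus strand (GRCm38, GENCODE M21) and its single coding transcript has 3 exons. It stood at 19.4, 4.28 and 6.16 CPM in Foxl2 siRNA cells at 54 h, against 1.85, 1.56 and 1.44 CPM in scrambled cells. Every Foxl2 siRNA library was above every scrambled one, and replicate 1 was far above the other two. The rise was 6.15-fold (log2 2.62 ± 0.51, adjusted p = 0.00141 by edgeR), and leaving out Foxl2 siRNA replicate 1 brought the log2 change to 1.69. At 30 h Cldn11 had 4.46, 2.27 and 1.55 CPM in Foxl2 siRNA cells and 0.802, 1.01 and 1.09 CPM in scrambled cells. These groups did not overlap either, but the difference, 1.51 ± 0.52 on the log2 scale, missed the threshold (adjusted p = 0.073 by edgeR); DESeq2 gave 0.0154, limma voom 0.0103, and edgeR without Foxl2 siRNA replicate 3 gave 0.0352.

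Esr2 siRNA cells had Cldn11 at 2.58, 1.84 and 2.55 CPM, all above the 0.802 to 1.09 CPM of scrambled cells at 30 h. The log2 difference of 1.26 ± 0.52 was not called (adjusted p = 0.216 by edgeR), while the fit of only these 2 groups gave an adjusted p of 0.0156 and limma voom gave 0.0305. Foxl2 siRNA and Esr2 siRNA cells overlapped at 30 h, with a log2 difference of 0.25 ± 0.49 (adjusted p = 0.763 by edgeR) that became -0.28 without Foxl2 siRNA replicate 1. From the highest mean down, the groups ran Foxl2 siRNA at 54 h, Foxl2 siRNA at 30 h, Esr2 siRNA at 30 h, scrambled at 54 h and scrambled at 30 h, and only the last neighbours in that order did not overlap. Scrambled cells averaged 1.61 ± 0.21 CPM at 54 h and 0.969 ± 0.15 CPM at 30 h (SD, n = 3 each), a difference that was not called (adjusted p = 1 by edgeR).

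**Figure D2:**
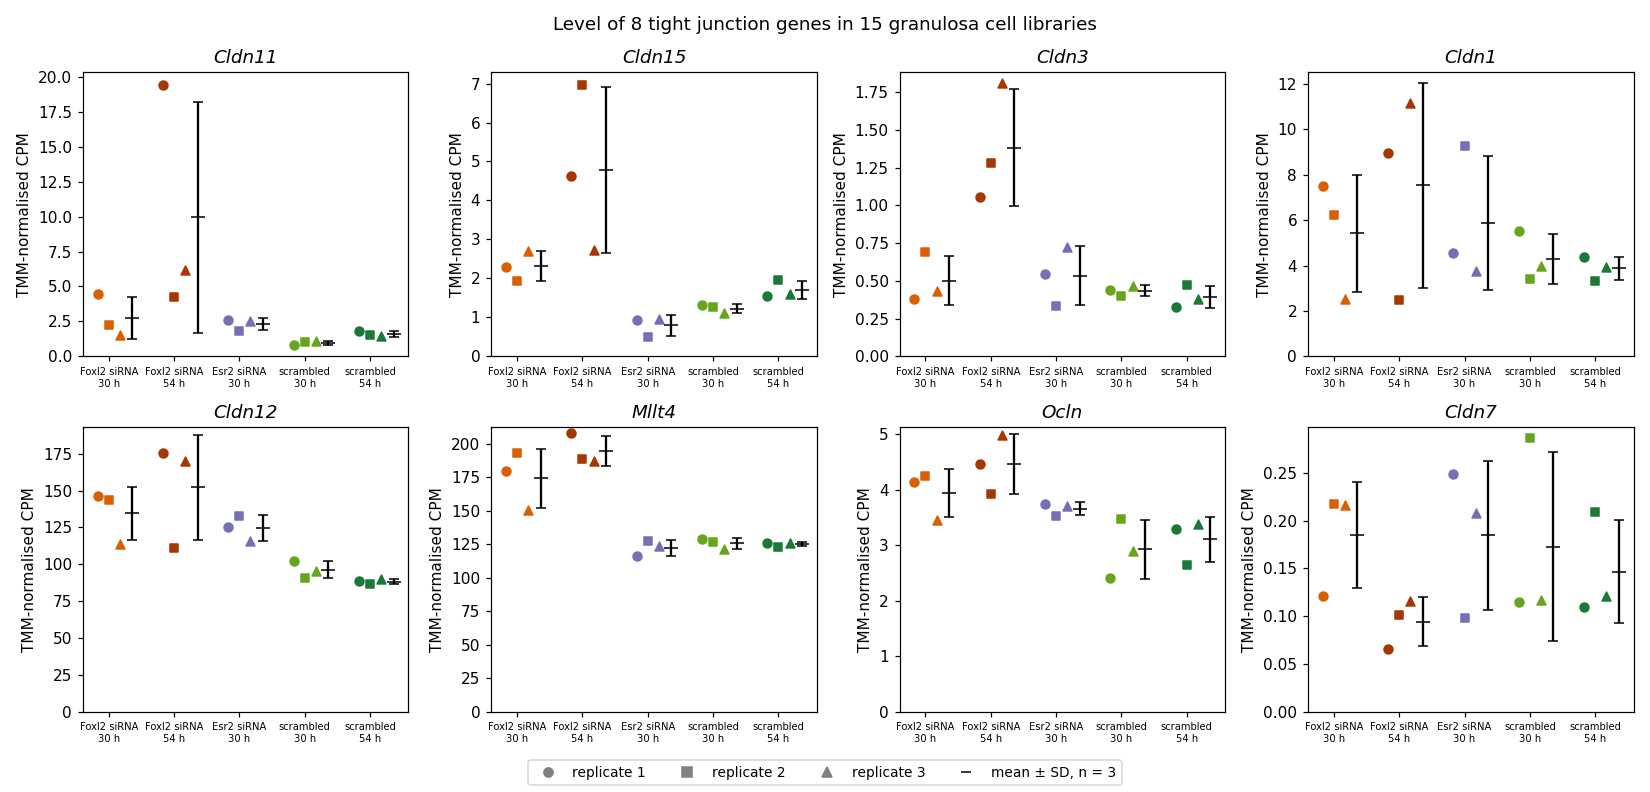
TMM-normalised CPM (y axis, linear and from 0, one scale a panel) of 8 tight junction genes in each of 15 libraries, by group; symbols are replicates and black bars the mean ± SD of 3. Cldn11 reaches 19.4 CPM in a single Foxl2 siRNA library at 54 h, Cldn3 is above 1 CPM only in the 3 Foxl2 siRNA libraries at 54 h, Cldn15 is lowest in Esr2 siRNA cells, and Cldn7 stays under 0.3 CPM everywhere.

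Promoter windows are shown for the 3 members with the widest ranges, Cldn11, Cldn15 and Cldn3. Each runs from 250 bases before to 50 after a RefSeq start site on GRCm38.p6, plus strand, 5′ to 3′. The windows are chr3:31149670-31149969, chr5:136967619-136967918 and chr5:134985964-134986263, in that order. Capitals mark a match to any of 5 motifs searched on both strands.
Cldn11: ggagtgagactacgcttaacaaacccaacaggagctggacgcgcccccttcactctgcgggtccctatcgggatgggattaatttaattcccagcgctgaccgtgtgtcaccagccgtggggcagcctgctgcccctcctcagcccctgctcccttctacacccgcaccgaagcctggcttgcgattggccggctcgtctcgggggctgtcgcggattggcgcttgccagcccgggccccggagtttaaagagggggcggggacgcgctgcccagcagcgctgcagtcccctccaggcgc
Cldn15: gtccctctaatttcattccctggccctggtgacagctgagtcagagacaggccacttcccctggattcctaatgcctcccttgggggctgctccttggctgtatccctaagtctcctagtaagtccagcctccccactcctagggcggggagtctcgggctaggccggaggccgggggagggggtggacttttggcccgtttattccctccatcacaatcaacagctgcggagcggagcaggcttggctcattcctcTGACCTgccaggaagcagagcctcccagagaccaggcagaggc
Cldn3: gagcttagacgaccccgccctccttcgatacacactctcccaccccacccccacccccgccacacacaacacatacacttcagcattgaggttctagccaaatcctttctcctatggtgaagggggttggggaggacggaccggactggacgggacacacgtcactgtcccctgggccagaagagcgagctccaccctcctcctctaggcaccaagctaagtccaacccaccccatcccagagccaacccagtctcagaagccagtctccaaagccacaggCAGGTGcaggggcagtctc
The motifs were GTAAACA (forkhead factors), GTCAAGG (described for FOXL2), AGGTCA (the half-site of the oestrogen response element and related receptors), ACAATGG (SOX factors) and CACCTG (the E-box bound by Snail factors), and no match overlapped another. The Cldn15 window holds AGGTCA on the opposite strand starting 8 bases past the start site, the Cldn3 window holds CACCTG on the opposite strand starting 32 bases past it, and the Cldn11 window holds none of the 5. Over all 32851 mouse promoter windows of the same length, 16.3% hold AGGTCA, 20.2% CACCTG, 3.65% GTAAACA, 3.18% GTCAAGG and 3.66% ACAATGG. Among the 15 windows of the 10 members, 4 hold AGGTCA, 4 hold CACCTG and none holds the others. A match describes letters in a window and does not show a bound site.

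Cldn15, which forms sodium pores in the intestine, was 1 of 2 members called between the siRNAs, with Mllt4. Its gene lies on chromosome 5 at 136966616 to 136975858. At 30 h it stood at 2.30, 1.94 and 2.72 CPM in Foxl2 siRNA cells and at 0.944, 0.489 and 0.97 CPM in Esr2 siRNA cells, with scrambled cells between them at 1.32, 1.26 and 1.11 CPM. The 3 groups did not overlap. The difference between Foxl2 siRNA and Esr2 siRNA cells was called (2.87-fold, log2 1.52 ± 0.32, adjusted p = 0.00515 by edgeR), where 20.4% of all genes were called in that comparison, 11.1% higher and 9.34% lower. Against scrambled cells neither side passed on its own at 30 h. The log2 difference was 0.92 ± 0.31 for Foxl2 siRNA (adjusted p = 0.0726 by edgeR; 0.0327 by DESeq2, 0.00375 by limma voom and 0.0281 with only the 2 groups fitted). For Esr2 siRNA it was -0.61 ± 0.33 (adjusted p = 0.372 by edgeR).

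At 54 h Cldn15 stood at 4.62, 6.98 and 2.73 CPM in Foxl2 siRNA cells, against 1.54, 1.95 and 1.61 CPM in scrambled cells. The groups did not overlap, and the change was 2.81-fold (log2 1.49 ± 0.31, adjusted p = 0.00213 by edgeR). The change at 54 h minus that at 30 h, 0.57 ± 0.44 on the log2 scale, was not called (adjusted p = 0.73 by edgeR). The libraries high in Cldn15 were not those high in Cldn11. Within Foxl2 siRNA cells Cldn15 was highest in replicate 3 at 30 h and replicate 2 at 54 h, the 2 libraries that kept the most Foxl2. Cldn11 was lowest of its time in those 2 libraries and highest in replicate 1 at both times. How many of all genes were highest or lowest in those libraries was not counted.

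Cldn3, a sealing claudin of many epithelia, was called higher in Foxl2 siRNA cells at 54 h and not at 30 h. It lies on chromosome 5 at 134986214 to 134987472, is a single exon, and its end overlaps the antisense gene Wbscr25 in the annotation. Whether counting used strand is not given in the sources used here, so reads of the 2 genes may not be separable. At 54 h it had 1.06, 1.28 and 1.81 CPM in Foxl2 siRNA cells, against 0.33, 0.474 and 0.381 CPM in scrambled cells. The rise was 3.49-fold (log2 1.81 ± 0.31, adjusted p = 0.000631 by edgeR), and each of the 3 Foxl2 siRNA libraries at 54 h was above all 12 other libraries. At 30 h the 0.383, 0.691 and 0.433 CPM of Foxl2 siRNA cells enclosed the 0.439, 0.397 and 0.469 CPM of scrambled cells, with a log2 difference of 0.20 ± 0.32 (adjusted p = 0.732 by edgeR). The change at 54 h minus that at 30 h was 1.60 ± 0.45 on the log2 scale, the only member with an unadjusted p under 0.05 in that comparison, and it was not called by edgeR (adjusted p = 0.237) though limma voom gave 0.0113. A single gene of all those tested, 0.00671%, was called there by edgeR, and 1056 genes by limma voom.

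The same stretch of chromosome 5 holds Cldn4, a related sealing claudin 39279 bases before Cldn3 on the other strand. Cldn4 had 2.44, 1.62 and 3.12 CPM in Foxl2 siRNA cells at 54 h and 0.439, 1.18 and 0.865 CPM in scrambled cells. It rose 2.89-fold at 54 h (log2 1.53 ± 0.41, adjusted p = 0.0104 by edgeR), and at 30 h its log2 difference was 0.44 ± 0.41 (adjusted p = 0.537).

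The 2 abundant members, Mllt4 and Cldn12, were called higher in Foxl2 siRNA cells at both times. Mllt4, on chromosome 17 at 13760539 to 13906150 and named Afdn in the annotation, had 180, 193 and 150 CPM in Foxl2 siRNA cells at 30 h, against 129, 127 and 121 CPM in scrambled cells. At 54 h it had 208, 189 and 187 CPM in Foxl2 siRNA cells, against 126, 123 and 126 CPM in scrambled cells. Neither pair of groups overlapped, and the log2 changes were 0.47 ± 0.08 at 30 h (adjusted p = 0.00207) and 0.64 ± 0.08 at 54 h (adjusted p = 6.52e-05, edgeR). Esr2 siRNA cells had 116, 128 and 124 CPM, within or just under the range of scrambled cells, and a log2 difference of -0.04 ± 0.08 (adjusted p = 0.879 by edgeR). Foxl2 siRNA cells were above Esr2 siRNA cells by 0.51 ± 0.08 on the log2 scale (adjusted p = 0.000766 by edgeR), so Mllt4 and Cldn15 were the 2 of 8 members called between the siRNAs. The start of Mllt4 overlaps antisense Tcte2 in the annotation, with the same limit on strand as for Cldn3.

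Cldn12 lies on chromosome 5 at 5489537 to 5514958. It had 146, 144 and 114 CPM in Foxl2 siRNA cells at 30 h, against 103, 91.0 and 95.6 CPM in scrambled cells, and 175, 111 and 170 CPM in Foxl2 siRNA cells at 54 h, against 88.4, 86.6 and 89.8 CPM in scrambled cells. The siRNA libraries were higher throughout, the lowest of each time being the one that kept the most Foxl2. The change at 54 h was 0.79 ± 0.14 on the log2 scale (adjusted p = 0.000994 by edgeR). That at 30 h was 0.48 ± 0.14 (adjusted p = 0.0442 by edgeR), and the call was lost without Foxl2 siRNA replicate 1 or 2 or without any of the 3 scrambled libraries, with adjusted p up to 0.145. Esr2 siRNA cells had 125, 133 and 116 CPM, also above all scrambled libraries at 30 h. That log2 difference of 0.37 ± 0.14 was not called by edgeR over all groups (adjusted p = 0.192) and was called with only the 2 groups fitted (adjusted p = 0.0224) and by limma voom (0.00121).

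Ocln changed least of the members called at 54 h. Its gene lies on chromosome 13 at 100496507 to 100552718 on the minus strand. It had 4.46, 3.93 and 4.99 CPM in Foxl2 siRNA cells at 54 h, against 3.30, 2.64 and 3.37 CPM in scrambled cells. The rise of 0.52 ± 0.16 on the log2 scale (adjusted p = 0.0175 by edgeR) was 0.43 without Foxl2 siRNA replicate 3 and 0.42 without scrambled replicate 2, and then no longer called (adjusted p = 0.0709 and 0.0769). At 30 h Foxl2 siRNA cells had 4.14, 4.25 and 3.44 CPM and scrambled cells 2.41, 3.46 and 2.90 CPM, which overlapped. The log2 difference was 0.43 ± 0.16 (adjusted p = 0.0875 by edgeR, 0.0472 by DESeq2, 0.0166 by limma voom, and 0.048 by edgeR without Foxl2 siRNA replicate 3). Esr2 siRNA cells had 3.74, 3.52 and 3.71 CPM, above scrambled cells by 0.32 ± 0.16 on the log2 scale (adjusted p = 0.307 by edgeR, 0.0318 by limma voom).

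Cldn1, a sealing claudin of skin and many epithelia, varied widely among Foxl2 siRNA libraries. It lies on chromosome 16 at 26356642 to 26371841. Foxl2 siRNA cells at 54 h had 8.97, 2.49 and 11.2 CPM, against 4.36, 3.34 and 3.94 CPM in scrambled cells. Foxl2 siRNA cells at 30 h had 7.51, 6.24 and 2.54 CPM, against 5.50, 3.40 and 3.99 CPM in scrambled cells. The 2 low Foxl2 siRNA values, under every scrambled value, belong to the libraries that kept the most Foxl2, and the other 4 were above every scrambled value. The log2 differences were 0.96 ± 0.51 at 54 h (adjusted p = 0.154) and 0.34 ± 0.51 at 30 h (adjusted p = 0.715), neither called by edgeR. Without Foxl2 siRNA replicate 2 the difference at 54 h was 1.38 and was called (adjusted p = 0.0178), as it was by limma voom (0.00685). Esr2 siRNA cells had 4.57, 9.27 and 3.78 CPM, with replicate 2 apart from the others, and a log2 difference of 0.45 ± 0.50 (adjusted p = 0.733 by edgeR). In the Esr2 siRNA library with 9.27 CPM the summed theca and stroma markers were the lowest of that group, 154 CPM against 316 and 500 CPM in its other libraries. In Foxl2 siRNA cells at 54 h the library with 11.2 CPM of Cldn1 had the highest sum, 820 CPM against 294 and 642 CPM. At 30 h the Foxl2 siRNA library with 7.51 CPM had the lowest sum, 211 CPM against 656 and 420 CPM. The part of these markers in the Cldn1 values was not tested.

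The remaining 3 members were at the edge of detection. Cldn7 had 3 to 15 counts in a library. Summed over 3 libraries it had 0.0931 CPM in Foxl2 siRNA cells at 54 h (exact 95% Poisson interval 0.0521 to 0.153), against 0.147 CPM in scrambled cells (0.0943 to 0.219), and its log2 difference of -0.60 ± 0.51 was not called (adjusted p = 0.373 by edgeR). Cldn5 had 14 counts in all, with 8 libraries at 0, and 8 of those counts fell in the 3 scrambled libraries at 30 h. Cldn10 had 3 counts, all in Esr2 siRNA replicate 1. Neither passed the filter for testing, so a difference in them was not detectable at this depth. For Cldn5 the other endothelial markers are a reference: the 11 on the list summed to 10.8 to 39.2 CPM over all libraries, with Tie1 at 0 in 3 of 15 libraries and Vwf at 0 in 1.

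Overlap between libraries was counted as well. Of the 8 tested members, 6 had all Foxl2 siRNA libraries above all scrambled libraries at 54 h, against 23.5% of all genes, and 4 at 30 h, against 15.3%. No member lay wholly below, where 27.9% and 17.7% of all genes did at 54 h and 30 h. With Esr2 siRNA, 3 members lay wholly above, Cldn11, Cldn12 and Ocln, against 14.2% of all genes, and Cldn15 lay wholly below, against 15.2%. Between the siRNAs at 30 h, Cldn15 and Mllt4 lay wholly above in Foxl2 siRNA cells, against 16.9% of all genes, and none below, against 17.9%. Some of these members were not called, since only Mllt4 and Cldn12 passed with Foxl2 siRNA at 30 h and none with Esr2 siRNA. Between scrambled cells at 54 h and 30 h, Cldn11 and Cldn15 lay wholly above, against 11.5% of all genes, and Cldn12 wholly below, against 11.2%. The comparisons of Foxl2 siRNA and Esr2 siRNA at 30 h use the same 3 scrambled libraries. Between the scrambled groups no member was called by edgeR or DESeq2 and none had an unadjusted p under 0.05 by edgeR; limma voom called Cldn15, with a log2 difference of 0.53 (adjusted p = 0.028). In that comparison edgeR called 0.00671% of all genes, while limma voom called 2693 genes.

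Outside the 10, a list of other tight junction genes had 69 rows, of which 54 were tested. At 54 h 23 were higher and 8 lower in Foxl2 siRNA cells, where 18.5% of all genes were higher and 20.3% lower. At 30 h 11 were higher and 4 lower, where 6.34% and 6.65% of all genes were. With Esr2 siRNA none was higher and 2 were lower, a share close to the 3.11% of all genes that were lower. By role, at 54 h, Cldn4 and Cldn6 were higher, of 16 claudin rows on the list. Apart from Cldn19, the other claudin rows did not pass the filter for testing. Cldn19 had 1 to 13 counts in scrambled libraries, 4 to 9 in Esr2 siRNA libraries and 11 to 171 in Foxl2 siRNA libraries. Its pass through the filter rested on the libraries in which it was high. Its calls, among the 23 higher at 54 h and the 11 at 30 h, therefore carry no weight here. Also higher at 54 h were 4 of 12 other transmembrane proteins with 1 lower, and 7 of 15 scaffold and plaque proteins with 3 lower. So were 4 of 11 polarity proteins with 1 lower, and 5 of 13 nectins and regulators with 3 lower. The other transmembrane proteins, with 41.7% called, and the polarity group, with 5 of 11 (45.5%) called, were near the 38.8% of all genes called. The median log2 change of the 54 genes was 0.34 at 54 h and 0.15 at 30 h. The zonula occludens scaffold Tjp1, which holds claudin tails in most epithelia and is named here outside the rule for named genes, was not called at either time, with log2 differences of 0.15 ± 0.08 at 54 h (adjusted p = 0.166) and 0.20 ± 0.08 at 30 h (adjusted p = 0.122, edgeR).

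**Figure D3:**
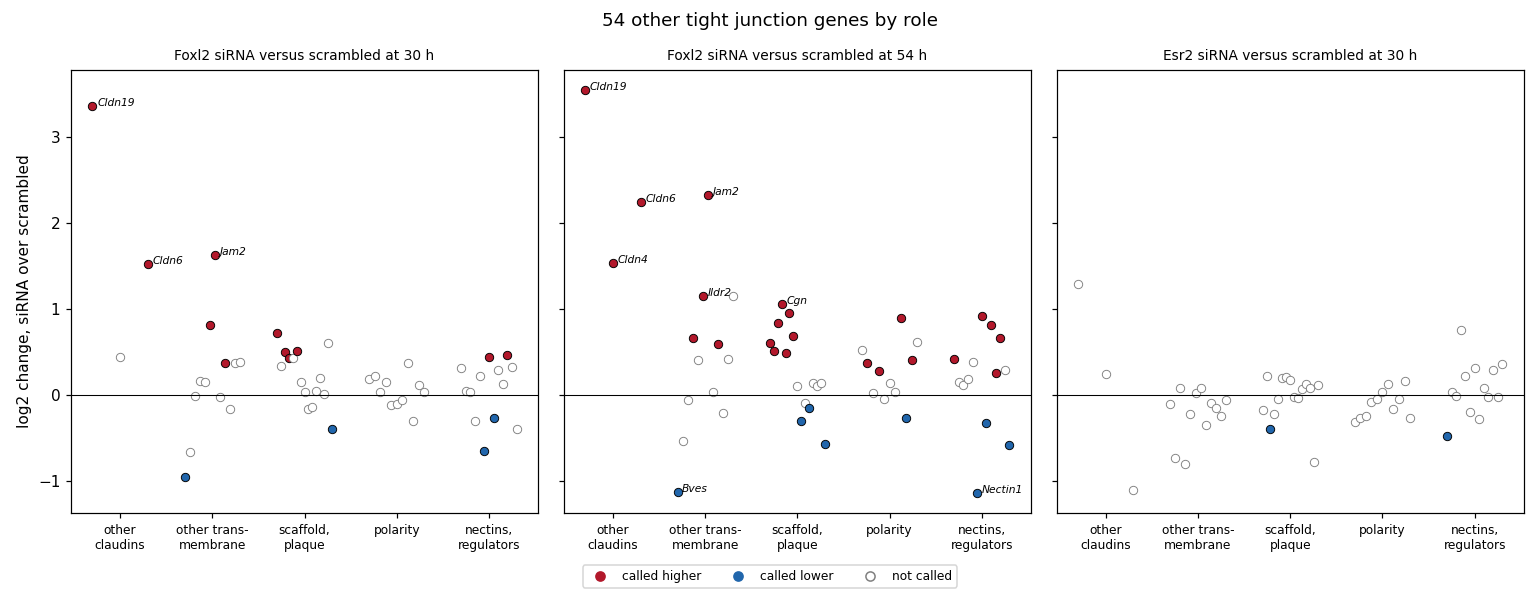
Log2 change (y axis, siRNA over scrambled) of 54 other tight junction genes grouped by role (x axis) in 3 comparisons; red points were called higher, blue points lower, and names are given for called genes beyond 1 in either direction. Cldn19, Cldn6, Jam2 and Cldn4 lead at 54 h, Bves and Nectin1 are the lowest called points, and Esr2 siRNA has 2 called points, both lower.

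Among the other claudins Cldn19, a claudin of kidney tubules and Schwann cells, stood at 3.76, 0.994 and 0.655 CPM in Foxl2 siRNA cells at 54 h, against 0.238, 0.0569 and 0.156 CPM in scrambled cells. Replicate 1 was the highest, as for Cldn11, and the log2 change was 3.55 ± 0.72 (adjusted p = 0.00184 by edgeR), 2.44 without Foxl2 siRNA replicate 1. At 30 h it was 3.36 ± 0.92 (adjusted p = 0.0304 by edgeR), from 41, 20 and 11 counts in Foxl2 siRNA cells against 4, 1 and 2 in scrambled cells, and the call was lost in 5 of 6 fits that left out a library. Cldn6, a claudin of embryonic epithelia, rose to 7.28, 8.63 and 3.29 CPM in Foxl2 siRNA cells at 54 h, against 1.21, 1.48 and 1.35 CPM in scrambled cells (4.75-fold, adjusted p = 0.000165 by edgeR). Like Cldn15 it was below scrambled cells with Esr2 siRNA, at 0.298, 0.430 and 0.450 CPM against 0.688, 0.948 and 0.905 CPM, without overlap and without a call (log2 -1.11 ± 0.36, adjusted p = 0.112 by edgeR). Cldn6 was called between the siRNAs, 6.21-fold higher in Foxl2 siRNA cells than in Esr2 siRNA cells at 30 h (adjusted p = 0.000243 by edgeR). In all, the files held 31 claudin rows, of which 6 were at 0 in every library and 10 could be tested: 6 members, then Cldn4, Cldn6 and Cldn19, and Cldn34c1, which is on neither list.

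Of the other membrane proteins Jam2, a junctional adhesion molecule, was among the most abundant and most changed. It stood at 1091, 407 and 925 CPM in Foxl2 siRNA cells at 54 h, against 153, 169 and 162 CPM in scrambled cells, a 5.00-fold rise (adjusted p = 9.04e-05 by edgeR). At 30 h it had 774, 690 and 400 CPM in Foxl2 siRNA cells and 194, 213 and 199 CPM in scrambled cells, 3.08-fold higher (adjusted p = 0.00356). As with Cldn1, Cldn11, Cldn12 and Ocln, the lowest Foxl2 siRNA value at each time was in the library that kept the most Foxl2. The share of all genes with that order was not counted. Ildr2, a member of the angulin family found where 3 cells meet, averaged 966 ± 136 CPM in Foxl2 siRNA cells at 54 h and 433 ± 18.1 CPM in scrambled cells (SD, n = 3 each; log2 1.16 ± 0.12, adjusted p = 1.78e-05 by edgeR). At 30 h its log2 change was 0.81 ± 0.12 (adjusted p = 0.000969). Bves, a popeye family membrane protein, fell to 19.7, 23.2 and 19.3 CPM in Foxl2 siRNA cells at 54 h, against 52.3, 38.6 and 44.6 CPM in scrambled cells (2.18-fold lower, adjusted p = 4.48e-05 by edgeR), and by 0.95 ± 0.13 on the log2 scale at 30 h (adjusted p = 0.000689).

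Nectins, the adhesion partners of afadin, split by member. Nectin1 had 18.5, 34.4 and 23.6 CPM in Foxl2 siRNA cells at 54 h, against 51.7, 63.1 and 53.96 CPM in scrambled cells, and fell by 1.14 ± 0.19 on the log2 scale (adjusted p = 0.000471 by edgeR). Nectin3 fell by 0.33 ± 0.07 (adjusted p = 0.00386). Nectin2, named here after its values were seen, had 604, 404 and 471 CPM in Foxl2 siRNA cells at 54 h, against 271, 257 and 257 CPM in scrambled cells, and rose by 0.91 ± 0.14 on the log2 scale (adjusted p = 0.00024 by edgeR), and by 0.45 ± 0.14 at 30 h (adjusted p = 0.047). Nectin4, also named after its values were seen, averaged 0.946 CPM in Foxl2 siRNA cells at 54 h and 0.533 CPM in scrambled cells and rose by 0.82 ± 0.28 on the log2 scale (adjusted p = 0.0317 by edgeR), while its log2 difference at 30 h was 0.29 ± 0.29 (adjusted p = 0.548). At 30 h the calls of Nectin1 (log2 -0.65 ± 0.18, adjusted p = 0.0375) and Nectin3 (log2 -0.27 ± 0.07, adjusted p = 0.0329) were each lost in 5 of 6 fits that left out a library.

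Cytoplasmic partners also moved in both directions, with 7 of 15 scaffold and plaque proteins called higher and 3 lower at 54 h. Amot, an angiomotin that binds junction polarity proteins, averaged 39.0 ± 6.39 CPM in Foxl2 siRNA cells at 30 h. Scrambled cells averaged 23.7 ± 1.56 CPM (SD, n = 3 each, log2 0.72 ± 0.12, adjusted p = 0.00192 by edgeR). At 54 h the log2 change of Amot was 0.61 ± 0.12 (adjusted p = 0.00159 by edgeR). Ybx3, a Y-box protein held at tight junctions by Tjp1, averaged 77.9 ± 7.95 CPM in Foxl2 siRNA cells at 54 h and 116 ± 2.92 CPM in scrambled cells (log2 -0.57 ± 0.07, adjusted p = 4.31e-05), with a log2 change of -0.39 ± 0.07 at 30 h (adjusted p = 0.00241). The kinase gene Wnk4, a regulator of claudin phosphorylation in the kidney, fell by 0.58 ± 0.16 at 54 h (adjusted p = 0.0113 by edgeR; 0.0865 with only the 2 groups fitted, 0.058 without scrambled replicate 1).

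The 2 genes lower with Esr2 siRNA were Arhgef18, an exchange factor at apical junctions, and the angiomotin Amotl2. Arhgef18 had 76.0, 113 and 84.9 CPM in Esr2 siRNA cells, against 127 CPM in each scrambled library at 30 h (log2 -0.48 ± 0.11, adjusted p = 0.0262 by edgeR). Amotl2 had 472, 592 and 489 CPM in Esr2 siRNA cells, against 693, 680 and 669 CPM in scrambled cells (log2 -0.39 ± 0.09, adjusted p = 0.021). Both calls were lost in 5 of 6 fits that left out a library. With Foxl2 siRNA at 30 h Amotl2 was higher than in scrambled cells by 0.50 ± 0.09 on the log2 scale (adjusted p = 0.00221 by edgeR). Arhgef18, at 0.32 ± 0.11, was not called there (adjusted p = 0.0706 by edgeR). At 54 h both genes were called higher, Arhgef18 by 0.42 ± 0.11 (adjusted p = 0.00835) and Amotl2 by 0.83 ± 0.09 (adjusted p = 1.59e-05, edgeR). The direct comparison of the siRNAs at 30 h was called for both. Foxl2 siRNA cells were higher by 0.80 ± 0.11 for Arhgef18 (adjusted p = 0.000299) and 0.90 ± 0.09 for Amotl2 (adjusted p = 2.29e-05, edgeR).

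Among 12626 tested genes with a mean of at least 1 CPM, the closest patterns to 3 members were sought over the 15 libraries, as the root mean square difference of log2 CPM after centring each gene on its mean. For Cldn11, whose own spread about its mean was 1.12 on this measure, they were BC021891 (0.349), Scin (0.377), which encodes an actin-severing protein, and Itgb8 (0.381), an integrin subunit. For Cldn15, with a spread of 0.900, they were Mylk3 (0.28), Kank4 (0.317) and Crb2 (0.326), the last a polarity gene of apical junctions. For Cldn3, with a spread of 0.681, they were Gsta4 (0.278), Nell2 (0.298) and Aplp1 (0.353). The points share libraries and group differences, and these distances are descriptions without a test.

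Marker lists of other cells moved beside these genes. Surface epithelium markers were 11 genes including keratins, Wt1 and Upk3b. In Foxl2 siRNA cells at 54 h they summed to 1010 to 1081 CPM, against 414 to 488 CPM in scrambled cells. At 30 h their sums were 629 to 689 CPM, against 451 to 477 CPM. Of the 11, 6 were called higher at 54 h and 3 at 30 h, where 18.5% and 6.34% of all genes were, and none lower. In Esr2 siRNA cells the 11 summed to 486 to 489 CPM with none called by edgeR. The epithelial Cdh1 reached at most 1.65 CPM and Epcam at most 2.20 CPM in any library. Sertoli and testis markers, 10 genes of which Wt1 is also on the epithelial list, summed to 367 to 586 CPM in Foxl2 siRNA cells at 54 h, against 136 to 151 CPM in scrambled cells, and to 226 to 370 CPM at 30 h, against 126 to 147 CPM. Of their 8 tested genes 7 were higher at 54 h and 4 at 30 h, where 18.5% and 6.34% of all genes were. The highest sum at each time was in replicate 1, as for Cldn11, and Dmrt1 was at 0 in 14 of 15 libraries. Wt1 had the highest level on the Sertoli and testis list, 88.6 to 358 CPM over all libraries, so these sums rest largely on it. It also reached the highest level on the surface epithelium list, above Krt8 at 158 to 267 CPM. By median over the 15 libraries Krt8 was higher, 203 against 113 CPM for Wt1. Amh is also on the granulosa list. The part of these markers in the junction gene changes was not tested.

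**Figure D4:**
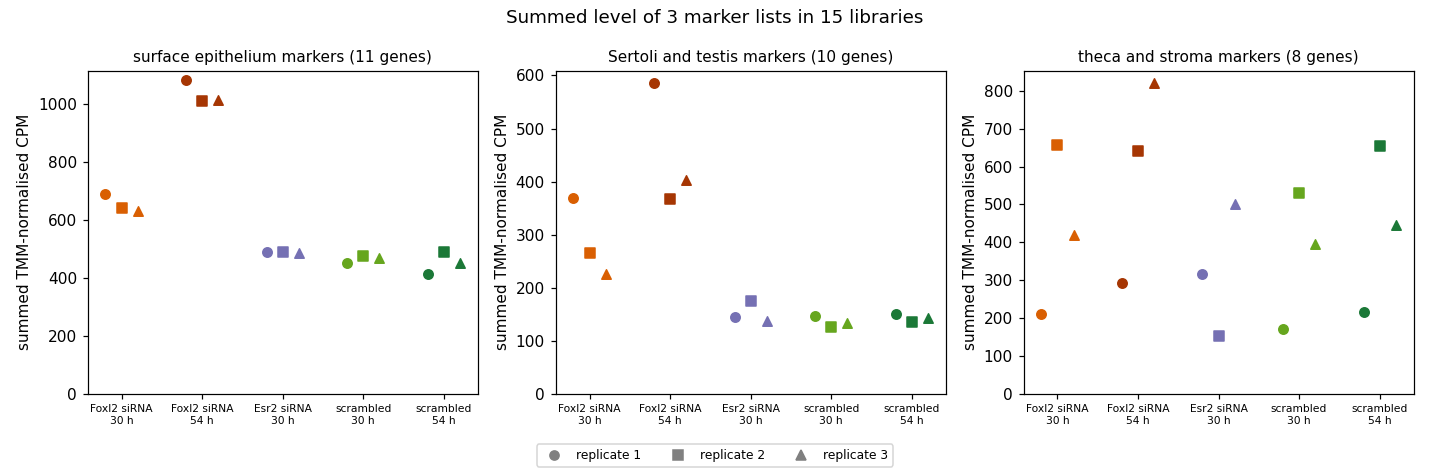
Summed TMM-normalised CPM (y axis) of 3 marker lists in each of 15 libraries, by group (x axis), with symbols for replicates. Surface epithelium sums are 1010 to 1081 CPM in Foxl2 siRNA cells at 54 h and 414 to 488 CPM in scrambled cells, Sertoli and testis sums are highest in replicate 1 of the Foxl2 siRNA cells, and theca and stroma sums overlap between all 5 groups.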

How the data were processed

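The submitters sequenced single 75-base reads of stranded TruSeq mRNA libraries, per the labels' protocols. Per the submitters' processing notes, bcl2fastq 2.15.0, TopHat2 and DESeq2 were used, with the mm10 build; how reads were counted, and whether by strand, is not given in the sources used here. The authors deposited raw counts per gene symbol for each library; a table of the whole series was not used here. The 92 spike-in rows, 0.105 to 0.352% of counts, were left out, and 15 symbols turned into dates in 1 file were restored by row position.

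Levels are CPM with TMM factors. Tests used edgeR 4.0.16 (R 4.3.3): 5 group means over all 15 libraries, filterByExpr, quasi-likelihood F tests with 10 residual degrees of freedom, and Benjamini-Hochberg adjustment over 14907 genes at 0.05. Alternatives were DESeq2 1.42.0, limma voom 3.58.1 with quality weights, RLE and upper-quartile scaling, no expression filter, only the groups compared, a replicate block, and leaving out each library. The fit was tested on simulated data. All 10 members are described in every comparison; from the wider list, up to 5 called genes each way with the largest change were named per siRNA comparison with scrambled; Nectin2, Nectin4, Tjp1 and Cldn34c1 were added after their values were seen. The members and lists were chosen with earlier results of these data known. Gene positions are from GENCODE M21, promoters from RefSeq. Replicate numbers in the titles are shared by all groups, which alone does not show pairing. Deviations of same-numbered libraries from their group means correlated over genes at 0.632, 0.49 and 0.143 between the scrambled groups. Between Foxl2 siRNA and scrambled cells they correlated at 0.494, 0.439 and 0.066 at 30 h, and at 0.397, 0.015 and 0.136 at 54 h. In the comparisons with Esr2 siRNA they ran from -0.474 to 0.322. Only the scrambled groups had all 3 over 0.1.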

Additional observations from a re-analysis of the deposited data

How the results depend on the processing

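All 10 member changes called, of 48 tested, kept their call and direction under DESeq2, limma voom with quality weights, other scalings, no filter, only the groups compared and the replicate block. Members called by Foxl2 siRNA at 30 h numbered 2 by edgeR, 5 by DESeq2, 5 by limma voom and 1 to 4 with a library left out (4 without Foxl2 siRNA replicate 3). Those at 54 h numbered 5 to 7. Those by Esr2 siRNA numbered 0 by edgeR, 3 by limma voom and 2 with only the groups compared. Limma voom also called 1 between the scrambled groups (Cldn15) and 1 for the difference between times (Cldn3), where edgeR called 0. Other tight junction genes called numbered 15 at 30 h (30 by limma voom, 8 to 21 with a library left out), 2 for Esr2 siRNA (4 by DESeq2, 20 by limma voom, 7 with only the groups compared, 0 to 4 with a library left out), 19 between the siRNAs (12 without Esr2 siRNA replicate 1), 0 between the scrambled groups (9 by limma voom, 3 with only the groups compared) and 0 for the difference between times (3 by limma voom, up to 3 with a library left out). Over all genes, the counts were 1936 at 30 h (5252 by limma voom, 898 to 3016 with a library left out), 631 for Esr2 siRNA (1097 by DESeq2, 4731 by limma voom, 1131 with only the groups compared, 238 to 1030 with a library left out), 3042 between the siRNAs (5446 by limma voom, 1625 with only the groups compared, 1767 to 3647 with a library left out), 1 between the scrambled groups (60 by DESeq2, 2693 by limma voom, 206 with only the groups compared, 0 with RLE scaling, without a filter or with a library left out) and 1 for the difference between times (192 by DESeq2, 1056 by limma voom, 1 to 904 with a library left out).

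Signs turned round for 14 of the 38 member changes that were not called, and for Foxl2 between times. In limma voom, Cldn3 had a log2 difference of -0.065 at 30 h, Cldn1 0.48 between the siRNAs and Mllt4 0.034 between the scrambled groups; upper-quartile scaling gave Mllt4 0.002 there. With a library left out, the log2 difference for Foxl2 siRNA at 30 h ran from -0.10 to 0.36 for Cldn3 and from -0.083 to 0.67 for Cldn7. For Esr2 siRNA it ran from -0.040 to 0.69 for Cldn1, -0.12 to 0.68 for Cldn7 and -0.067 to 0.003 for Mllt4. Between the siRNAs it ran from -0.42 to 0.38 for Cldn1, -0.40 to 0.18 for Cldn3, -0.29 to 0.26 for Cldn7 and -0.28 to 0.53 for Cldn11. Between the scrambled groups it ran from -0.29 to 0.074 for Cldn1, -0.53 to 0.32 for Cldn7, -0.029 to 0.22 for Ocln and -0.029 to 0.018 for Mllt4. Between times it ran from -0.048 to 0.20 for Ocln and -0.65 to 0.21 for Foxl2. The cause was not tested.

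The replicate block left the count of members called as it was in every comparison: 2 at 30 h, 6 at 54 h, 0 for Esr2 siRNA, 2 between the siRNAs, and 0 for both others. Over all genes it called 3 between the scrambled groups, against 1 without it, and elsewhere moved the count by less than 1.5 times. The scrambled groups were the only comparison in which same-numbered libraries correlated over 0.1 for all 3 numbers. Depth limits Cldn5, Cldn7 and Cldn10.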
